A study of Mus musculus with 16 samples.

Results

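The Sox and Fox genes encode 2 large families of transcription factors, and 52 of them were followed here across all 8 sample groups of a mouse skin array study of 18194 genes. Members were all gene symbols of the array annotation made of Sox and a number, or of Fox, a letter from a to s and a number, except Sox9, Sox10, Foxm1 and Foxn1. Of the 56 symbols that match, 4 were left out, which gave 17 Sox and 35 Fox genes. Where several probe sets were mapped to a gene alone, the one with the highest mean over the 16 arrays was used. The rule reads gene symbols alone, although it was set with earlier results of these data known.

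Sox proteins bind the minor groove of DNA through a high mobility group box and bend it, while Fox proteins bind through a winged helix called the forkhead domain. In skin, members of both families set the identity of hair follicle lineages, the quiescence of follicle stem cells and the response to insulin-like signals. Hedgehog signalling, which the study switched on, acts through the receptor Ptch1, the transducer Smoothened and the Gli factors.

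The study sorted cells from tail epidermis of mice of mixed strain background and profiled them on Affymetrix arrays. SmoM2 is a constantly active form of Smoothened used to model basal cell carcinoma, and in these mice it sits with a YFP tag at the Rosa locus until a tamoxifen-activated Cre releases it. The tamoxifen-treated groups of K14CREER/Rosa-SmoM2-YFP mice, in which Cre is driven in keratin 14 cells, were SmoM2-positive basal cells of the interfollicular epidermis (IFE), with 1 array at 3 days, 3 arrays each at 1 week and at 4 weeks, and 2 arrays at 10 weeks. A further group of K14CREER/Rosa-SmoM2-YFP mice also carried b-cat flox/flox alleles for loss of β-catenin in the same cells, at 4 weeks (n = 2). The IFE control was the same K14CREER/Rosa-SmoM2-YFP genotype without tamoxifen (n = 3). Bulge and outer root sheath cells, where follicle stem cells lie, came from K19CREERT2/Rosa-SmoM2-YFP mice 4 weeks after tamoxifen (n = 1) and without it (n = 1). SmoM2 groups and controls therefore differed in tamoxifen, in the time since it and in the sort as well as in SmoM2, and these cannot be told apart. The animals' ages are not given in the labels, and nothing there says whether replicates were separate mice, so the spread behind the p-values may be technical.

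Array medians lay between 5.38 and 5.53 on the log2 scale of the deposited values. Krt14, a keratin of basal cells, read 12.83 to 14.21 in all 16 arrays. Cd34, a bulge marker, read 6.83 in bulge SmoM2 and 9.72 in the bulge control, and at most 5.63 in the IFE arrays. The hedgehog targets Gli1 (log2 difference 4.91 ± 0.54, SE) and Ptch1 (4.09 ± 0.47) were higher at 4 weeks than in control, both with limma adjusted p = 0.00587. The source label of the bulge control speaks of SmoM2-positive cells although the mice were untreated, and Gli1 read 9.96 in bulge SmoM2 and 9.89 in the bulge control, against 5.30 to 5.73 in the IFE control. Ctnnb1, which encodes β-catenin, read 12.76 to 12.93 in the arrays labelled β-catenin loss, against 13.21 to 13.65 with SmoM2 alone. Whether that probe set lies in the deleted part was not tested, so it does not check the label. Y-linked signal was unbalanced between groups: it averaged 8.41, 7.58 and 6.02 in the 4-week arrays, against 3.41, 8.18 and 3.43 in the controls. It averaged 3.39 and 6.91 with β-catenin loss, 3.48 in bulge SmoM2 and 6.35 in the bulge control.

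To enter the tests, a gene needed a signal above an array's 40th percentile in 2 or more arrays. Of the 52 members, 36 passed (13 Sox and 23 Fox), and 25 of these did so in all arrays. The 16 that did not pass were Sox1, Sox2, Sox8, Sox30, Foxa1, Foxa2, Foxa3, Foxb1, Foxc2, Foxd1, Foxd4, Foxf2, Foxi1, Foxj1, Foxp3 and Foxs1. In 13 of them no array lay above that percentile, and in 3 a single array did. Sox2, a factor of Merkel cells and dermal papillae, read 3.00 to 4.05 in all arrays. Foxj1, which drives the making of motile cilia, read 4.26 to 4.89, and Foxd1, known from kidney stroma, read 3.38 to 3.91. The exception was Sox8, a relative of Sox9 and Sox10, which read 6.09 in the bulge control and 3.46 to 4.04 in the other 15 arrays. In the mouse gene table, 7 further genes whose symbols fit the pattern had no probe set of their own on the array, among them Foxe1 and Foxi3, and were not analysed here.

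Over the 16 arrays, the log2 signal of 13 tested members spanned at least 2 units, that of 8 spanned 1 to 2 units, and that of 15 stayed within 1 unit. Most tested members thus varied by less than 2 units, which the heat map of the tested members shows. A principal component analysis of the member signals placed 57.2% of their variance on the first component, on which Sox13, Sox4 and Foxp1 had the highest loadings (0.31, 0.30 and 0.20) and Foxq1, Foxp2 and Sox21 the lowest (-0.53, -0.44 and -0.28). Scores on it were -4.40 to -3.69 in the controls, -3.07 at 3 days, -2.45 to 3.04 at 1 week, 1.51 to 3.53 at 4 weeks and 0.42 to 1.34 at 10 weeks. They were -0.68 and -0.03 with β-catenin loss, 2.69 in bulge SmoM2 and 5.42 in the bulge control. The array of 1-week replicate 2, at 3.04, lay among the 4-week arrays, while the other 1-week arrays were at -1.77 and -2.45.

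**Figure D1:**
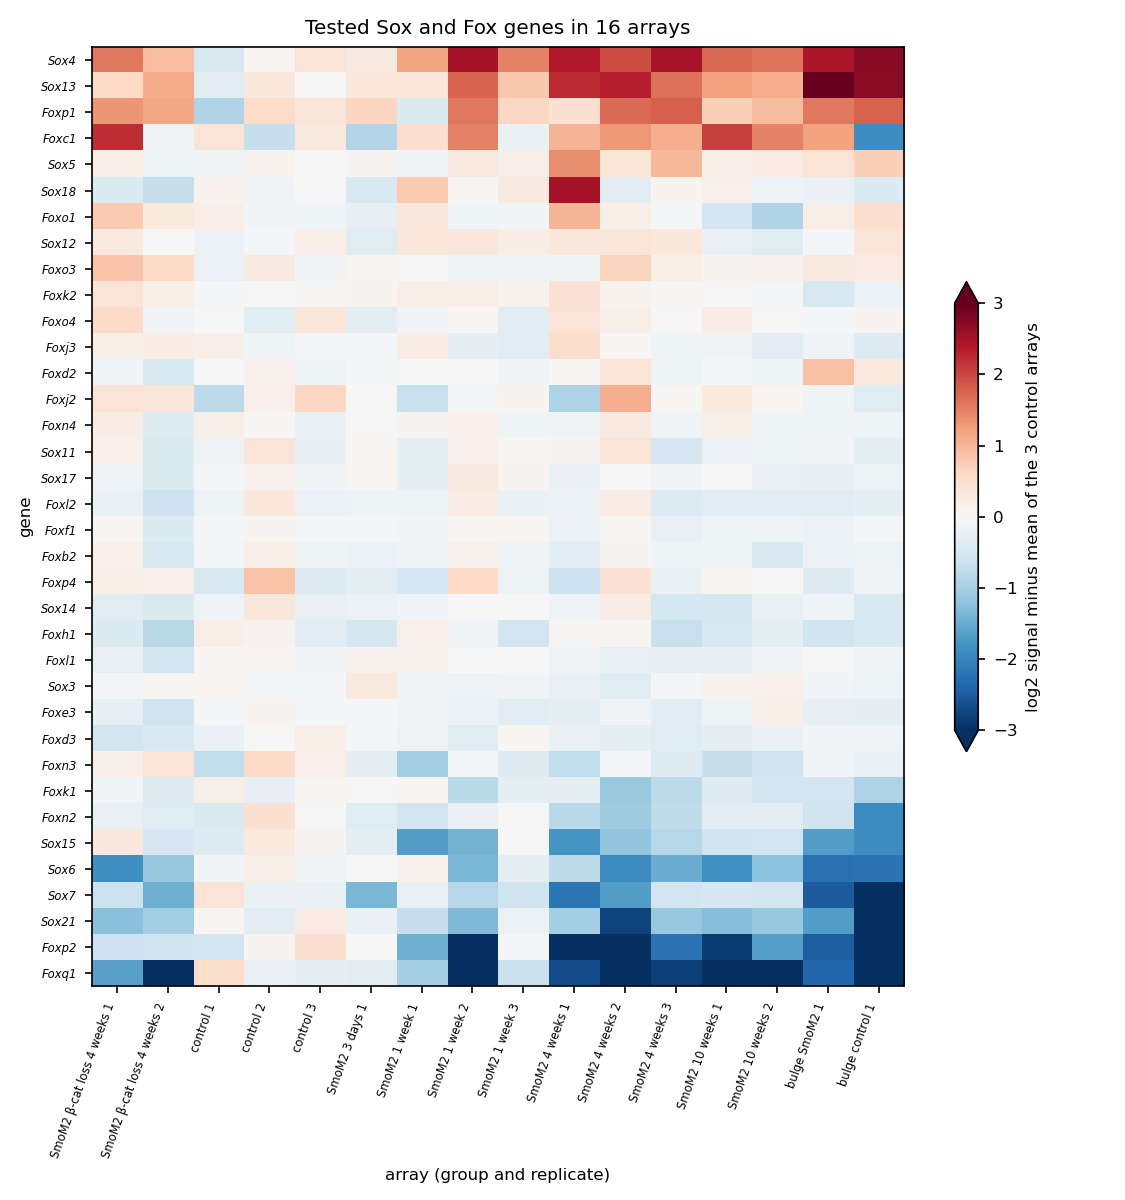
Heat map of the 36 tested Sox and Fox genes (rows, ordered by their 4-week difference) in 16 arrays (columns, by group and replicate). Colour is the log2 signal minus the mean of the 3 control arrays, capped at 3 units, and the strong colours lie mostly in the top 6 and bottom 6 rows.

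The comparison of 4 weeks with control asks which members differ 4 weeks after SmoM2 was switched on. In the main fit, which has no block for replicate number, Sox4 and Sox13 rose and Foxp2 fell, 3 of the 36 members tested. The other 33 did not pass the threshold of an adjusted p under 0.05 (limma, Benjamini-Hochberg over 14286 genes). With replicate number as a block more members passed, as given below. Over all genes tested the share called was 3.24%, with 2.44% higher and 0.798% lower. An unadjusted p under 0.05 was found in 12 members and in 2156 of the 14286 genes (limma). The median difference over the 36 was -0.12, against -0.05 over all genes tested. In these sorted bulk samples, fewer cells with a transcript and less transcript per cell cannot be told apart. Where groups are said not to overlap, this only describes the arrays. The share of all genes without overlap was not counted, and groups this small can easily separate.

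The putative promoters of the genes that rose are shown as the 250 bases before the annotated start, from RefSeq on build GRCm38.p6, on the minus strand of chr13:28953700-28953949 for Sox4 and of chr1:133424213-133424462 for Sox13. Capitals mark CG dinucleotides, the sites of DNA methylation in mammals.
Sox4: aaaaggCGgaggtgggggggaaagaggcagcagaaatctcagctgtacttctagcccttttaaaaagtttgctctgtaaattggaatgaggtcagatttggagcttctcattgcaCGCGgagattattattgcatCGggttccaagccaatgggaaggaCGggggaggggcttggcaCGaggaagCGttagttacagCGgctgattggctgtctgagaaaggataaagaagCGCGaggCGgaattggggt
Sox13: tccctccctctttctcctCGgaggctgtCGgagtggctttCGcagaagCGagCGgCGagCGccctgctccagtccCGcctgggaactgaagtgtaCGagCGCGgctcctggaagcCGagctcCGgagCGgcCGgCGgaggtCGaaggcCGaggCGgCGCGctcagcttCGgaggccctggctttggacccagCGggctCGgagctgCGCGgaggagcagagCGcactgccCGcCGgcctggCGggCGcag
The Sox4 window held 11 CG dinucleotides at a GC content of 50.8% and the Sox13 window 31 at 72.4%, against medians of 6 and 52.0% over 27025 gene promoters and 18 and 64.8% over the 36 members in the promoter table. These 36 are not the 36 tested members, as they include untested ones such as Sox2 and Foxa1 and lack Foxp2 and Foxq1. A Gli core (CCACCCA, on either strand) occurred in neither window, nor did a Sox motif (AACAAT) or a forkhead motif (TGTTTAC). Of all promoters, 8.16% held the Gli core, 9.65% the Sox motif and 3.09% the forkhead motif in the same window. Among the members, the first annotated start of Foxi1 had the Gli core, those of Foxa1 and Sox12 the forkhead motif, and none the Sox motif. Foxp2, Foxq1 and Sox7 had no entry in the table and are named only.

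Sox4 belongs to the SoxC group, which acts in progenitor cells and is raised in many tumours. It read 9.81, 10.36 and 10.69 in control arrays, 10.55 at 3 days, 11.47, 12.78 and 11.77 at 1 week, 12.68, 12.25 and 12.76 at 4 weeks, and 12.01 and 11.91 at 10 weeks. From 1 week on, all 8 arrays lay above the highest control array, while the 3-day array lay within the control range. Sox4 was 4.86-fold higher at 4 weeks than in control (log2 difference 2.28 ± 0.34, SE, adjusted p = 0.0101, limma). Its 6 brighter probe sets of 8 all had positive differences, 0.51 to 2.99, and the others were dim in all arrays. Of 15 alternatives, 14 kept the call, and without control replicate 2 its adjusted p was 0.0518 (limma). The difference was 1.72 ± 0.34 at 1 week (adjusted p = 0.209, limma) and 1.67 ± 0.38 at 10 weeks (adjusted p = 0.0795, limma), which did not pass. Of the other SoxC genes, Sox12 read 7.18, 7.23 and 7.17 at 4 weeks, against 6.69, 6.82 and 7.06 in control, without overlap (0.34 ± 0.16, adjusted p = 0.366, limma). A dimmer Sox12 probe set, above the filter level in all 16 arrays, differed by 0.98. Sox11 differed by -0.01 ± 0.27.

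The SoxD genes act in cartilage, muscle and immune lineages. Sox13 read 6.39, 7.00 and 6.70 in control arrays, 7.04 at 3 days, 7.03, 8.47 and 7.51 at 1 week, 8.93, 9.03 and 8.36 at 4 weeks, and 7.92 and 7.78 at 10 weeks. All 9 SmoM2 arrays lay above the highest control array, the 3-day array and the lowest 1-week array only just. At 4 weeks Sox13 was 4.22-fold higher than in control (log2 difference 2.08 ± 0.34, adjusted p = 0.0128, limma), and 13 of 15 alternatives kept the call. Without control replicate 2 the adjusted p was 0.0518 and without control replicate 3 it was 0.0603 (limma). Sox13 has a single probe set, so no other probe set bears on it. At 1 week its difference was 0.97 ± 0.34 and at 10 weeks 1.15 ± 0.38, neither past the threshold (adjusted p = 0.741 and 0.215, limma).

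Sox5, a partner of Sox6 in cartilage, read 6.87, 5.84 and 6.47 at 4 weeks, against 5.38, 5.57 and 5.47 in control. The groups did not overlap, but the difference of 0.92 ± 0.24 did not pass (adjusted p = 0.0665, limma). Sox6 differed the other way, with 7.17, 6.05 and 6.47 at 4 weeks, against 7.87, 8.13 and 7.85 in control, and again the groups did not overlap. Its difference was -1.39 ± 0.39 (adjusted p = 0.0803, limma), and with Y-linked signal as a covariate it was -1.80 with an adjusted p of 0.0217 (limma). All 4 probe sets of Sox6 had negative differences, -2.55 to -1.07, and the 4 brighter ones of 7 for Sox5 had positive differences, 0.92 to 2.09.

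Foxp2, a FoxP factor best known for its part in brain circuits and speech, was the member that fell in the main fit. It read 8.02, 8.66 and 9.07 in control arrays, 8.59 at 3 days, 7.12, 5.06 and 8.55 at 1 week, 5.60, 4.90 and 6.38 at 4 weeks, and 5.73 and 6.93 at 10 weeks. The 4-week and 10-week arrays all lay below the lowest control array, and the 1-week arrays spanned both ranges. Foxp2 was 7.76-fold lower at 4 weeks (log2 difference -2.96 ± 0.71, adjusted p = 0.0469, limma), and its 5 brighter probe sets of 6 all had negative differences, -3.48 to -1.07. The call is near the threshold: 7 of 15 alternatives kept it, and leaving out any 1 control or 4-week array ended it, with adjusted p between 0.0535 and 0.163 (limma).

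The relative Foxp1, which holds follicle stem cells in quiescence, was on the other side of control. It read 9.26, 10.52 and 10.60 at 4 weeks, against 7.90, 9.36 and 9.18 in control, and the groups overlapped. All 8 probe sets had positive differences, 0.55 to 1.60, and the difference of the brightest was 1.31 ± 0.53 (adjusted p = 0.251, limma). Foxp4 differed by -0.13 ± 0.39, and its 3 probe sets lay on both sides of 0.

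Among the members that did not pass at 4 weeks in the main fit, Foxq1 had the lowest difference. In the mouse, Foxq1 is mutated in the satin coat and acts in the hair medulla. It read 10.35, 9.59 and 9.52 in control arrays, 9.50 at 3 days, 8.81, 5.35 and 9.15 at 1 week, 7.16, 6.36 and 7.02 at 4 weeks, and 6.67 and 6.80 at 10 weeks. With the probe set used, every SmoM2 array lay below the lowest control array, the 3-day array only just. The 4-week difference of -2.97 ± 0.80 (adjusted p = 0.0715, limma) and the 10-week difference of -3.09 ± 0.89 (adjusted p = 0.152, limma) did not pass. In fits of the compared groups alone, which leave out the arrays of every other IFE group, Foxq1 passed at 4 weeks (adjusted p = 0.00466) and at 10 weeks (adjusted p = 0.00240, limma). Which of the arrays left out made the difference was not tested. A dimmer Foxq1 probe set, above the filter level in all 16 arrays, differed by 0.48 at 3 days, -2.06 at 4 weeks and -1.76 at 10 weeks.

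Sox21, whose loss in mice causes cyclic hair loss, read 9.28, 7.53 and 9.16 at 4 weeks, against 10.35, 9.99 and 10.55 in control. The groups did not overlap and the difference was -1.64 ± 0.42 (adjusted p = 0.0619, limma). Sox7, a SoxF factor of blood vessel development, read 7.64, 8.16 and 9.30 at 4 weeks, against 10.22, 9.64 and 9.65 in control, with a difference of -1.47 ± 0.38 (adjusted p = 0.0620, limma). At 3 days the lone array read 8.47 for Sox7, below all controls (-1.37 ± 0.54, adjusted p = 1.00, limma). Sox15, the only SoxG gene, read 5.71, 6.29 and 6.62 at 4 weeks, against 7.11, 7.78 and 7.57 in control, with a difference of -1.28 ± 0.41 (adjusted p = 0.134, limma).

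The replicate numbers in the labels pair the control, 1-week and 4-week arrays, as same-numbered arrays deviated together. With that number as a block, 6.11% of all genes tested were called, against 3.24% without it, and 8 of the 36 members passed at 4 weeks: Sox4, Sox13 and Foxp2 again, and Foxq1 (adjusted p = 0.0303, limma), Sox21 (0.0232), Sox7 (0.0471), Foxk1 (0.0409) and Foxn2 (0.0493), all 5 lower with SmoM2. Foxk1 read 9.01, 8.19 and 8.53 at 4 weeks, against 9.48, 9.06 and 9.37 in control, and Foxn2 read 8.92, 8.67 and 8.98 at 4 weeks, against 9.30, 10.18 and 9.72 in control. These are differences of -0.73 and -0.87, and neither gene's groups overlapped.

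**Figure D2:**
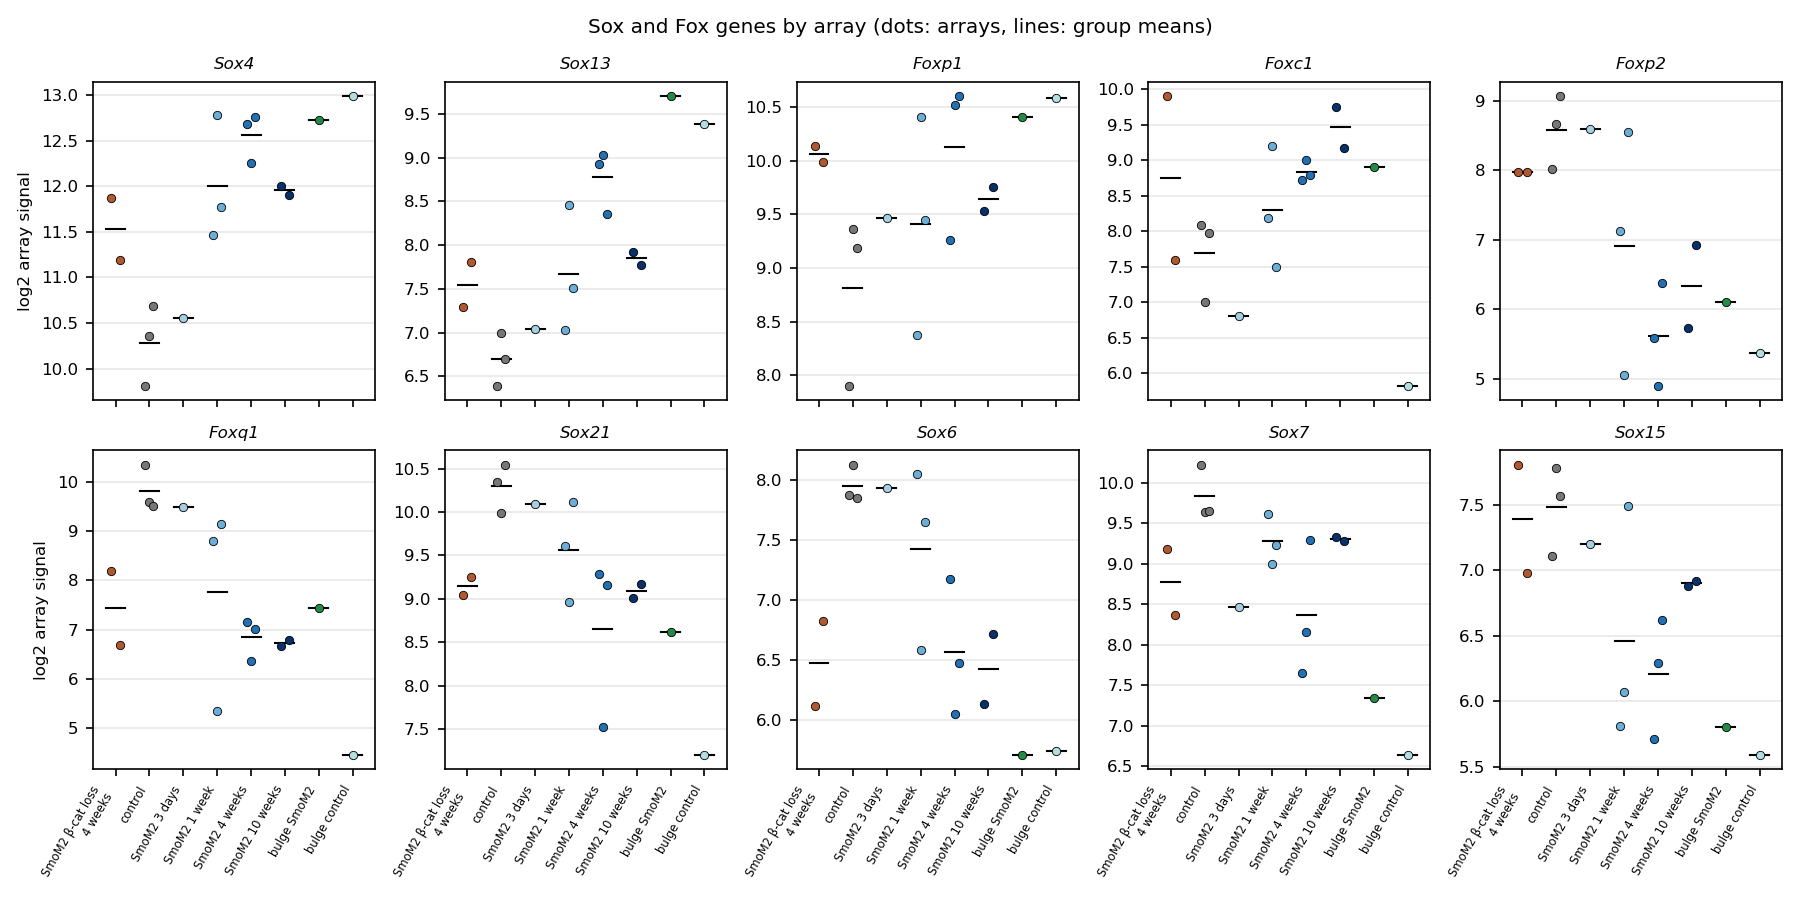
Log2 array signal (vertical axis) of 10 Sox and Fox genes in each group (horizontal axis), with a dot per array and a line at the group mean. Sox4 and Sox13 lay at 12.25 to 12.76 and 8.36 to 9.03 at 4 weeks, above all controls, and Foxp2 at 4.90 to 6.38, below them, while 1-week arrays were widely spread.

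**Figure D3:**
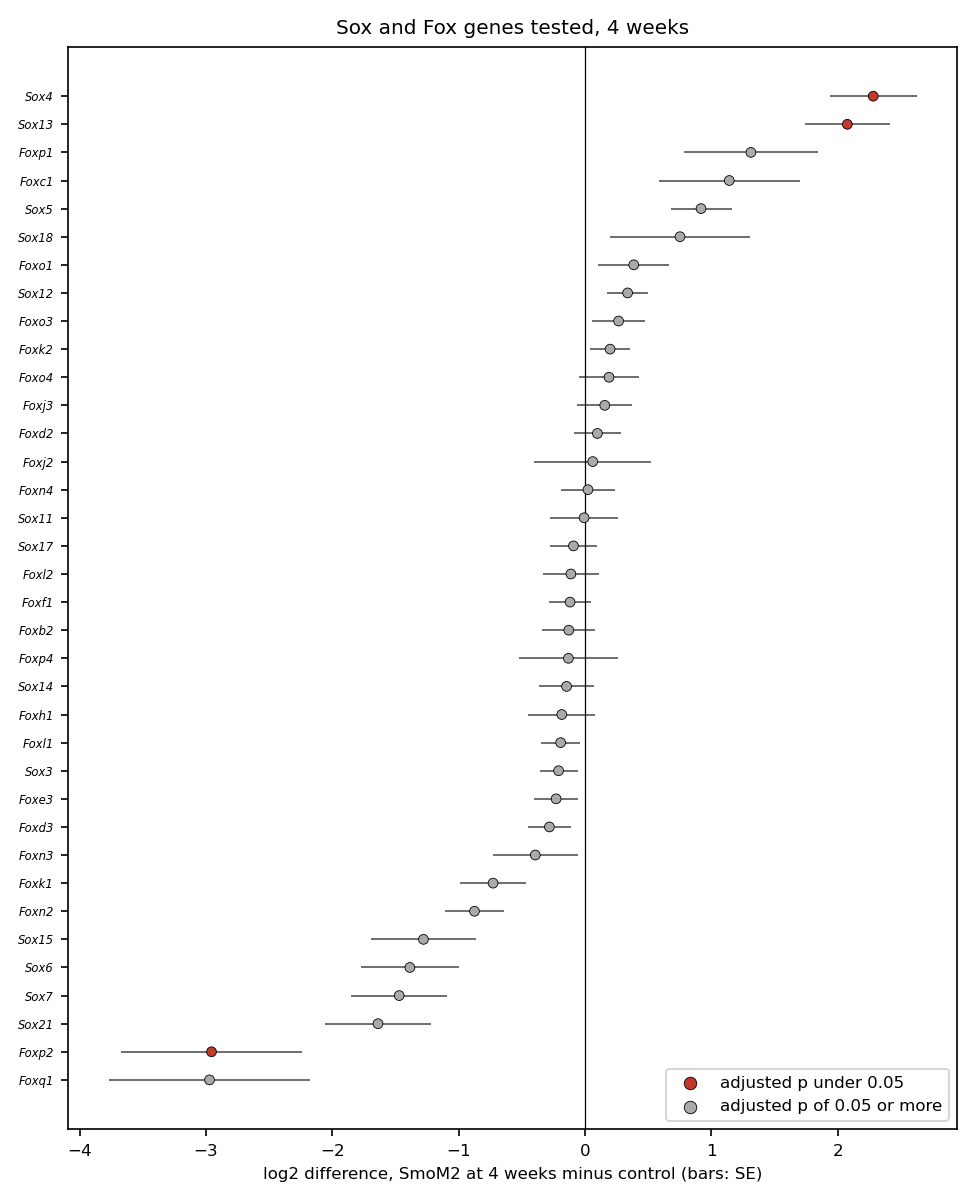
Log2 difference of SmoM2 at 4 weeks minus control (horizontal axis, bars show SE) for the 36 tested members (vertical axis). Red dots mark Sox4, Sox13 and Foxp2, which passed an adjusted p under 0.05 in the fit without a replicate block, and most other members lie near 0.

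Foxc1, a factor that keeps follicle stem cells quiescent, read 8.72, 9.00 and 8.79 at 4 weeks and 9.75 and 9.18 at 10 weeks, against 8.09, 7.01 and 7.98 in control. All arrays of these SmoM2 groups lay above the controls, by 1.14 ± 0.56 at 4 weeks (adjusted p = 0.375, limma) and 1.77 ± 0.62 at 10 weeks (adjusted p = 0.260, limma). With Y-linked signal as a covariate Foxc1 passed at both times (adjusted p = 0.0430 and 0.0365, limma). Sox18, a SoxF factor of vessels and of hair in the ragged mouse, stood out in 1 array: it read 7.79 in 4-week replicate 1, and 4.96 and 5.37 in the others, against 5.39, 5.18 and 5.30 in control. In that array the summed signal of 9 endothelial markers was 8.15, within the 8.08 to 8.61 of the 4-week group and below the 8.43 to 8.63 of the controls, and the endothelial marker Cdh5 was below the 40th percentile in all arrays. Only 5 of the 9 passed the filter, and the part of endothelial cells in the Sox18 value was not tested.

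Foxo1 and Foxo3, effectors that insulin signalling holds out of the nucleus, differed from control at 4 weeks by 0.39 ± 0.28 and 0.27 ± 0.21, with overlapping groups. Of 20 genes listed as FoxO regulators and targets, 18 were tested and 0 passed at 4 weeks by limma. An unadjusted p under 0.05 was found in 3 of them, and in 2156 of the 14286 genes (limma). Foxf1, known from lung mesenchyme, differed by -0.12 ± 0.17. Of 9 genes of multiciliated cells listed beside Foxj1, 4 were tested and Rfx3, a ciliary transcription factor, rose (1.66 ± 0.39, adjusted p = 0.0430, limma). The median over these 4 was -0.08, and Rfx3 is not taken as a target of Foxj1. Of the 4 family members outside the rule, Sox9 differed by 1.74 ± 0.59 and Foxn1 by -1.83 ± 0.60, and none passed at 4 weeks (limma).

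Other gene lists moved at the same time. Their counts at an unadjusted p under 0.05 stand beside 2156 of the 14286 genes (limma). Of 7 hedgehog pathway genes tested, 4 rose at 4 weeks (Gli1, Gli2, Ptch1 and Smo, median of the list 3.58), and of 10 transcription factors of follicle stem cells and placodes, 5 rose (Lhx2, Tcf7l1, Tbx1, Lef1 and Hmga2, median 1.48). Of 7 bulge and outer root sheath markers, Lgr5, Lhx2 and Tcf7l1 rose, and the summed log2 signal of that list was 13.85 to 14.29 at 4 weeks, against 13.42 to 13.84 in control, with Cd34 at 3.68 to 4.35 at 4 weeks. Epidermal keratinocyte markers summed to 15.48 to 15.65 at 4 weeks, against 15.94 to 16.11 in control, with 0 of 8 past the threshold (limma, 4 at an unadjusted p under 0.05, median -0.47). Sebaceous gland markers summed to 12.09 to 13.61 at 4 weeks, against 13.27 to 13.90 in control, with 0 of 6 past the threshold (limma, 3 at an unadjusted p under 0.05, median -0.99). The summed signal of 8 dermal fibroblast markers was 10.94 to 12.65 at 4 weeks, against 9.43 to 9.58 in control. Of the 7 of these that were tested, 1 rose, Dcn (10.69 to 12.53 at 4 weeks, against 8.67 to 9.22 in control). An unadjusted p under 0.05 was found in 4 of the 7 (limma, median 0.60). Col1a2 was above the 40th percentile in all 14 IFE arrays, and Col1a1 was below it in all 14. Melanocyte markers summed to 9.63 to 11.18 at 4 weeks, against 10.60 to 12.88 in control, with 0 of 9 past the threshold (limma, 5 at an unadjusted p under 0.05). The part of these lists in the Sox and Fox differences was not tested.

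The earlier and later times were compared with control in the same way. At 3 days, with 1 array, 0 of the 36 members passed and 1 had an unadjusted p under 0.05 (limma), and over all genes 0% were called. At 1 week, 0 passed, with 0% of all genes called, and 5 had an unadjusted p under 0.05, as did 677 of the 14286 genes (limma). There the 3 arrays ranged widely, from 5.35 to 9.15 for Foxq1, from 5.06 to 8.55 for Foxp2 and from 8.37 to 10.41 for Foxp1, and replicate 2 held the extreme value on the 4-week side each time. At 10 weeks, 0 members passed, where 0.7% of all genes were called (limma). An unadjusted p under 0.05 was found in 8 members and in 1521 of the 14286 genes (limma). Sox6 read 6.13 and 6.72 at 10 weeks, below the 7.85 to 8.13 of the controls (-1.52 ± 0.43, adjusted p = 0.142, limma). A fit of the 10-week and control arrays alone called 5.17% of all genes and 7 of the 36 members, Foxq1, Sox6, Sox4, Sox21, Foxp2, Sox13 and Foxc1, with adjusted p between 0.00240 and 0.0426 (limma).

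Between the SmoM2 times, 0 members passed at 4 weeks against 1 week and 0 at 10 weeks against 4 weeks (limma). In each comparison 0% of all genes were called. An unadjusted p under 0.05 was found in 5 members each time, and in 688 and 893 of the 14286 genes (limma). Foxo1 had the lowest difference of the later comparison, with 7.92 and 7.58 at 10 weeks, against 9.50, 8.66 and 8.42 at 4 weeks (-1.11 ± 0.31, adjusted p = 0.769, limma), and the groups did not overlap. Sox13 was 0.92 ± 0.38 lower at 10 weeks than at 4 weeks and Sox5 0.71 ± 0.27 lower, in both without overlap of the groups, and neither passed (adjusted p = 0.794, limma). Sox12 read 6.64 and 6.50 at 10 weeks, against 7.18, 7.23 and 7.17 at 4 weeks.

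The group labelled β-catenin loss was set against SmoM2 alone and against control, β-catenin being the effector of Wnt signalling. Cells that lost β-catenin while SmoM2 stayed off were not profiled. What the loss does by itself therefore cannot be told apart from a need of the SmoM2 differences for β-catenin. Neither SmoM2 alone nor the control is described as carrying b-cat flox alleles, so genotype differed in both comparisons. Against SmoM2 alone at 4 weeks, 0 of 36 members passed, where 2.23% of all genes were called (limma). An unadjusted p under 0.05 was found in 6 members and in 2454 of the 14286 genes (limma). Sox4 read 11.87 and 11.19 with β-catenin loss, against 12.68, 12.25 and 12.76 with SmoM2 alone, and lay between that group and the controls without overlap with either (-1.04 ± 0.38, adjusted p = 0.186, limma). Sox13 read 7.30 and 7.80 with loss, against 8.93, 9.03 and 8.36 with SmoM2 alone (-1.22 ± 0.38, adjusted p = 0.116, limma), and it too lay between the other groups. Sox5 read 5.66 and 5.33 with loss, against 6.87, 5.84 and 6.47 with SmoM2 alone (-0.89 ± 0.27, adjusted p = 0.109, limma). Its loss arrays lay around the control range of 5.38 to 5.57.

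Foxp2 read 7.97 in both loss arrays, against 5.60, 4.90 and 6.38 with SmoM2 alone, the highest difference of this comparison among the members (2.35 ± 0.80, adjusted p = 0.151, limma). Sox15 read 7.81 and 6.98 with loss, against 5.71, 6.29 and 6.62 with SmoM2 alone (1.19 ± 0.46, adjusted p = 0.210, limma). In both genes all loss arrays lay above all arrays with SmoM2 alone. Sox18 lay below the 40th percentile in both loss arrays, so its difference of -1.30 ± 0.62 (adjusted p = 0.316, limma) has no exact size, and without 4-week replicate 1 it was -0.43. Foxn3, a forkhead repressor, read 10.54 and 10.72 with loss, against 9.61, 10.29 and 9.96 with SmoM2 alone (0.68 ± 0.38, adjusted p = 0.399, limma), and all 4 of its probe sets had positive differences, 0.54 to 1.17. Foxn2 read 9.50 and 9.37 with loss, against 8.92, 8.67 and 8.98 with SmoM2 alone (0.58 ± 0.26, adjusted p = 0.280, limma). Neither gene's groups overlapped, which says little with so few arrays. Sox6 differed by -0.09 ± 0.43 and Foxp1 by -0.07 ± 0.59.

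The loss arrays were not alike, and their Y-linked signal differed as well, at 3.39 and 6.91. Foxc1 read 9.90 and 7.60 in them, on either side of the 8.72 to 9.00 with SmoM2 alone, and Foxq1 read 8.19 and 6.69, against 6.36 to 7.16 with SmoM2 alone. Gli1 ranged from 7.22 to 9.56 between them, against 9.95 to 10.83 with SmoM2 alone, and the summed signal of sebaceous gland markers was 14.13 to 14.34 with loss, against 12.09 to 13.61 with SmoM2 alone. Dermal fibroblast markers summed to 8.55 to 10.63 with loss, against 10.94 to 12.65 with SmoM2 alone, with 0 of 7 past the threshold (limma, 5 at an unadjusted p under 0.05, median -1.15). Of the 10 factors of follicle stem cells and placodes, Lef1 (-1.70 ± 0.21, adjusted p = 0.00948, limma) and Hmga2 (-2.10 ± 0.46, adjusted p = 0.0427, limma) were lower with loss. The median of the 7 hedgehog pathway genes was -1.15, with 0 past the threshold (limma, 5 at an unadjusted p under 0.05). Their part in the Sox and Fox values was not tested.

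Against control, the loss group with SmoM2 had 0 of 36 members past the threshold, where 0.371% of all genes were called (limma). An unadjusted p under 0.05 was found in 9 members and in 2089 of the 14286 genes (limma). Sox6 read 6.12 and 6.82 with loss, against 7.87, 8.13 and 7.85 in control (-1.48 ± 0.43, adjusted p = 0.149, limma). Foxq1 differed by -2.38 ± 0.89, Sox21 by -1.15 ± 0.47 and Sox7 by -1.06 ± 0.43, all below the controls without overlap. The dimmer Foxq1 probe set differed by -0.96. Foxp1 read 10.14 and 9.99 with loss, above the 7.90 to 9.36 of the controls (1.24 ± 0.59, adjusted p = 0.357, limma). Foxo3 read 9.88 and 9.61 with loss, against 8.84, 9.28 and 8.94 in control (0.72 ± 0.24, adjusted p = 0.190, limma). Of the FoxO regulators and targets, Irs2, an adaptor of the insulin receptor, was higher (1.59 ± 0.28, adjusted p = 0.0406, limma). Melanocyte markers summed to 8.88 to 9.07 with loss, against 10.60 to 12.88 in control, with 0 of 9 past the threshold (limma, 8 at an unadjusted p under 0.05, median -2.35), and their part in the member values was not tested.

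**Figure D4:**
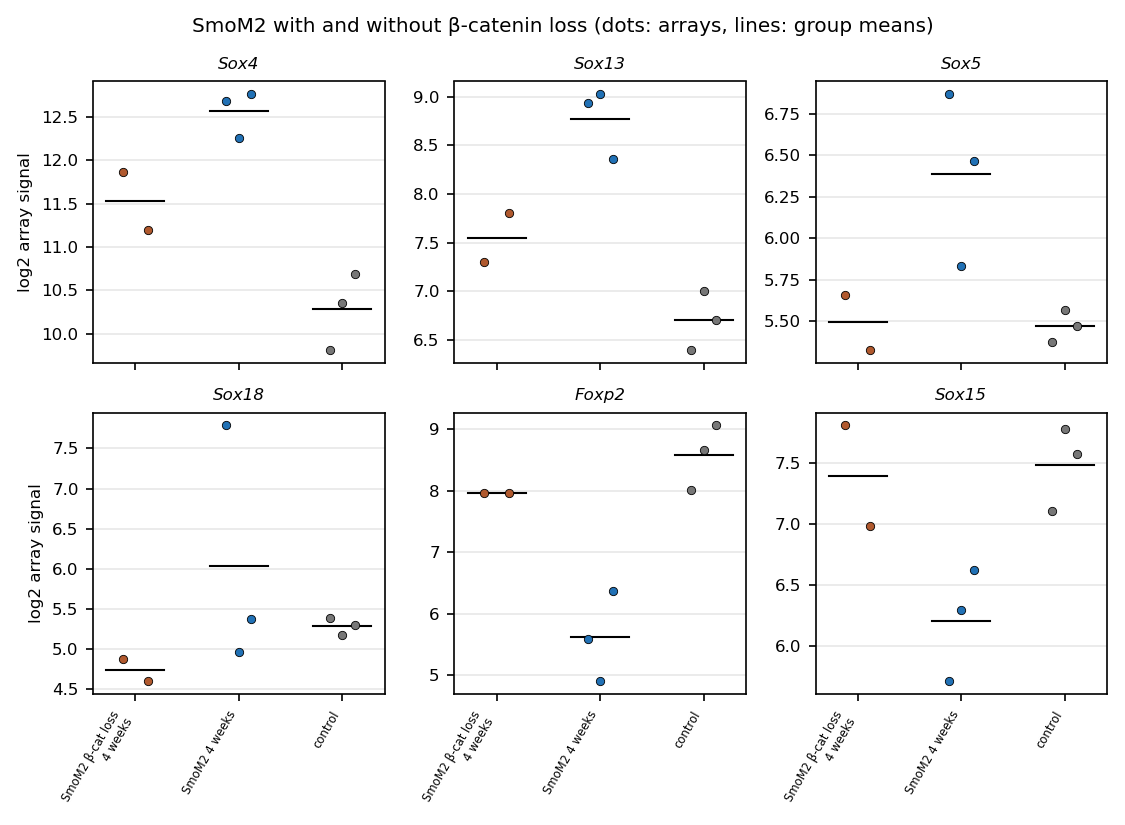
Log2 array signal (vertical axis) of 6 members in SmoM2 with β-catenin loss, SmoM2 alone and control (horizontal axis), with a dot per array and a line at the group mean. Foxp2 read 7.97 in both loss arrays, above the 4.90 to 6.38 with SmoM2 alone, and Sox4 and Sox13 lay between the other groups.

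Bulge and IFE were compared without a test, as each bulge group was 1 array. In the bulge control, 11 of the 36 members differed at least 2-fold from the mean of the IFE controls, where 12.9% of all genes did (7.24% higher and 5.68% lower). The 3 higher ones were Sox4, Sox13 and Foxp1. Sox4 read 12.99 in the bulge control, against 9.81 to 10.69 in the IFE controls, Sox13 read 9.39 in the bulge control, against 6.39 to 7.00 in the IFE controls, and Foxp1 read 10.59 in the bulge control, against 7.90 to 9.36 in the IFE controls. These are log2 differences of 2.71, 2.69 and 1.77.

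The 8 lower members in the bulge control were Foxq1, Foxp2 (log2 difference -3.21), Sox7 (-3.19), Sox21 (-3.09), Sox6 (-2.20), Foxn2 (-1.92), Sox15 (-1.90) and Foxc1 (-1.87). Foxq1 read 4.47 in the bulge control, below the 40th percentile of that array at 4.91, against 9.52 to 10.35 in the IFE controls, and was lower than their mean by at least 4.91 log2 units when that percentile is taken as its upper limit. All 11 lay outside the range of the IFE controls, but so did members with small differences, such as Foxf1 (-0.06) and Foxb2 (-0.16), so this adds little. The bulge control shares those control arrays with the 4-week comparison, so the values of both are only set side by side. For the bulge control and the 4-week SmoM2 group against IFE control, the log2 differences were 2.71 and 2.28 in Sox4, 2.69 and 2.08 in Sox13, -3.21 and -2.96 in Foxp2, and -1.87 and 1.14 in Foxc1.

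SmoM2 in the bulge was set against the bulge control. Of the 36 members, 4 differed at least 2-fold, all higher, where 6.94% of all genes differed and 4.35% were higher. Foxc1 read 8.90 in bulge SmoM2 and 5.82 in the bulge control (log2 difference 3.08). Foxq1 read 7.45 in bulge SmoM2 and 4.47 in the bulge control, which is below the 40th percentile of 4.91, so the log2 difference was at least 2.53. Sox21 read 8.61 in bulge SmoM2 and 7.21 in the bulge control (1.41). Foxn2 read 9.13 in bulge SmoM2 and 7.81 in the bulge control (1.32). In all 4 genes the bulge control was also below the IFE controls. Sox4 and Sox13 differed by -0.27 and 0.32, and Foxp2 by 0.74. Outside the tested genes, Sox8 read 4.04 in bulge SmoM2 and 6.09 in the bulge control. The Merkel cell marker sum also differed between these arrays, 9.51 in bulge SmoM2 and 11.35 in the bulge control, and its part was not tested. Y-linked signal differed too, 3.48 in bulge SmoM2 and 6.35 in the bulge control, and its part in the bulge differences was not tested.

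**Figure D5:**
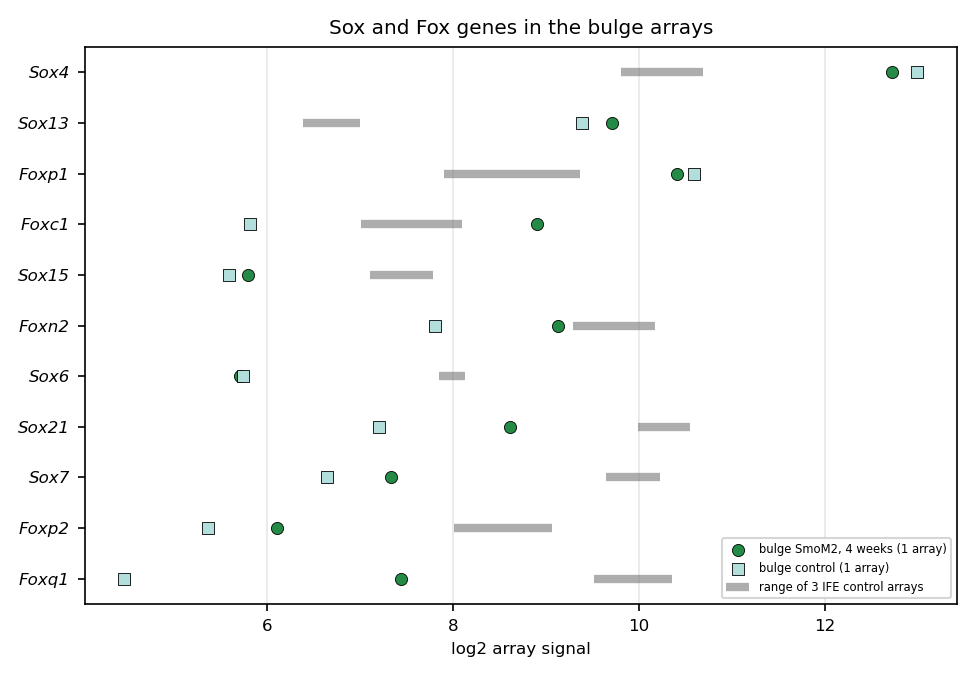
Log2 array signal (horizontal axis) in bulge SmoM2 and bulge control (1 array each) for the 11 tested members (vertical axis) that differed at least 2-fold in a bulge comparison, with grey bars for the range of the 3 IFE controls. Foxq1 and Foxc1 were higher in bulge SmoM2, at 7.45 and 8.90, against 4.47 and 5.82 in the bulge control (Foxq1 there below the 40th percentile of the array), while Sox4 and Sox13 lay close together.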

How the data were processed

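Per the labels' protocols, RNA of sorted cells was amplified, biotin-labelled and hybridised to Affymetrix arrays. The table the authors deposited holds log2 values, as their range shows, of 45101 probe sets for 16 arrays. Per the submitters' processing notes R 2.14.0 was used. How background, normalization and the summary over probes were handled is not given in the sources used here. Of the probe sets, 34958 had 1 gene in the array annotation, 932 several and 9211 none. All 52 members matched the gene table, with 121 probe sets, and 23 had a single one. Gene symbols can be old.

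From these values, group means of the 14 IFE arrays were fitted with limma 3.58.1 in R 4.3.3 on the 14286 genes that passed the 40th percentile filter in at least 2 arrays. Moderated tests (11.6 total degrees of freedom) were adjusted by Benjamini-Hochberg over all these genes, with a threshold of 0.05. The lone 3-day array was assumed to vary like the others. Bulge arrays were compared by 2-fold differences without a test. Precision is limited by the number of arrays. A trial of the method on simulated data drew the noise of each array independently, whereas same-numbered arrays here deviated together. It therefore does not check the p-values under such pairing.

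Members and lists were chosen with earlier results of these data known. Named genes were the members past the threshold, the 6 largest differences of each comparison and a fixed set. Foxk1, Foxn2 and Foxn3, Sox8 and Foxa1, Foxi1 and Sox12 in the motif search, Foxo3 with β-catenin loss and the gene lists' called members were named besides. Same-numbered control, 1-week and 4-week arrays deviated together from their group means (correlations 0.34 to 0.70), so their numbers were taken to pair them, and those at 10 weeks and with β-catenin loss were not. Alternatives were other filters, normalizations, probe set rules, sample sets, blocks, Y-linked signal as a covariate, and leaving out each array.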

Additional observations from a re-analysis of the deposited data

Results flagged for a closer look

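For Foxq1 and Sox21, the differences between SmoM2 and control arrays had opposite signs in the bulge and in the IFE. Foxq1 was at least 2.53 log2 units higher in bulge SmoM2 than in the bulge control, whose signal lay below the 40th percentile of its array (measured difference 2.98, no exact size), while each of the 3 IFE arrays at 4 weeks lay below the mean of the IFE controls, on average by -2.97. Sox21 was 1.41 units higher in bulge SmoM2 than in the bulge control, against a mean difference of -1.64 in the IFE with all 3 arrays below the control mean. With 1 array for each bulge group the difference between the tissues was not tested. For Foxq1 and Sox21 the bulge control was the lowest of all 16 arrays. Opposite signs were not particular to them: Foxn2 differed by 1.32 in the bulge and -0.87 in the IFE, Foxp2 by 0.74 and -2.96, and Sox7 by 0.70 and -1.47. The bulge arrays hardly differed in Gli1, at 9.96 in bulge SmoM2 and 9.89 in the bulge control, but Cd34 read 6.83 and 9.72.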

How the results depend on the processing

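Precision is limited by groups of 1 to 3 arrays. At 4 weeks against control, where 3 members passed, the replicate block gave 8 with the numbers of the titles (6.11% of all genes called) and 8 with those of the descriptions (5.99%), Y-linked signal as a covariate gave 5 (adding Foxc1 and Sox6, 2.82%), and leaving out 1 array gave 0 to 3, with 0 without control replicate 2 and 1 without control replicate 3. At 10 weeks, where 0 passed, the fit of the compared groups alone gave 7 (5.17%) and the Y-linked covariate 3 (Foxc1, Sox4 and Sox6, 1.11%). For β-catenin loss against SmoM2 alone, where 0 passed, the replicate block gave 3 (Foxp2, Sox13 and Sox15, 9.43%) or 2 (Foxp2 and Sox13, 8.27%), although the numbers were not shown to pair these groups, and leaving out 1 array gave 0 to 1, Sox5 without 4-week replicate 2. The block changed no other call. The counts with 1 array left out stand without the share of all genes called, so they say nothing particular about the members. Foxp2 at 4 weeks also missed the threshold without the filter (adjusted p = 0.0737, limma) and with arrays centred on their median (0.0510). Of 669 values of named members under alternatives, 632 kept direction and side of the threshold, 24 newly passed and 11 no longer passed. Those that turned round had not passed: Foxh1 at 3 days was 0.11 with the mean of all probe sets, and Sox18 at 10 against 4 weeks was 0.12 without 4-week replicate 1, the highest of -1.29 to 0.12 when 1 array was left out. The cause of these shifts was not tested.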
